A study of Homo sapiens with 32 samples.

Results

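Windows of accessible chromatin that lay deep inside introns of protein-coding genes are described here across ATAC-seq libraries of control cells and of cells treated with dTAGV-1, a compound that targets the tagged zinc finger transcription factor ZNF143 for degradation. The level of ZNF143 itself was not measured here. A window of the deposited count table, reaching 200 bp to either side of its centre, was taken as deep intronic when its centre lay in the body of a protein-coding gene of GENCODE release 44, in no annotated exon, and more than 10000 bp from every annotated transcript start on hg38. The rule used position alone and no measured value. It selected 40035 of 212358 windows, or 18.9%, in 5470 of 20046 protein-coding genes. The 2 other classes used for comparison were 39961 windows between genes and more than 10000 bp from a start (called intergenic below) and 40300 windows within 500 bp of a start (called promoter windows).

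Introns are spliced out of the transcript, but their DNA can carry regulatory sites. ATAC-seq uses the Tn5 transposase to insert adapters into DNA that is not covered by nucleosomes, so that counts over a window report how open it is. Distal intronic sites of this kind are often enhancers, binding sites of the architectural protein CTCF, or alternative starts that an annotation does not list. ZNF143 is a sequence-specific activator with a tandem array of zinc fingers, best known from promoters, including those of genes for small nuclear RNAs. Its long binding site has the bases ACTACA upstream of a part rich in C.

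All libraries came from HEK_CloneZD29, which is 1 clone of the human embryonic kidney line HEK293T, and both groups share this clone. The labels record an inducible degron tag on ZNF143 for replicates 1 to 8, and give the same clone name for replicates 9 to 16. The dTAGV-1 libraries were made after 30 min with 50 nM dTAGV-1, a compound that brings a tagged protein to a ubiquitin ligase, and the control libraries are labelled DMSO for replicates 9 to 16. Counts were given for replicates 9 to 16, with 8 libraries in each group, while replicates 1 to 8 contributed a pooled list of peak summits. Nothing in the labels says that the libraries came from separate cultures, so p-values measure only the spread between these libraries, which may be technical. With 1 clone, no value here separates the clone from the line.

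Totals over all windows ran from 2275856 to 13671039 counts per library, and a deep intronic window held a median of 7 to 24 counts. Deep intronic windows took 10.5 ± 1.22% of the counts of a control library and 10.4 ± 0.719% of a dTAGV-1 library (SD, n = 8 each). Control replicate 12, the library with the fewest counts, had 13.5%, and the shares without replicates 11 and 12 of both groups were 10.0 ± 0.168% and 10.1 ± 0.179% (n = 6 each). Of its counts, 31.0% lay in the top decile of windows, against 37.8% in dTAGV-1 replicate 12, 40.3% in dTAGV-1 replicate 11 and 44% to 47.3% in the other libraries. Promoter windows were found at PAX2, LIN28B, NEFM and NEFL, genes known to be active in HEK293T, but not at SOX11, another such gene. There was 1 at the muscle gene MYOD1 and none at the liver, blood, pancreatic and epidermal genes ALB, APOA1, PTPRC, CD3E, CD79A, INS, GCG, KRT5 and TP63.

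After dTAGV-1, 17 of 34096 tested deep intronic windows fell (0.0499%) and 0 rose. Calls were made by the quasi-likelihood test of edgeR with Benjamini-Hochberg adjustment over all windows tested (adjusted p under 0.05). Over all 185040 tested windows, 0.213% were lower and 0.00108% higher. These 17 lay in 16 genes, among them GRIN2D, RHOA, SYN3, LRMDA, MAP3K2 and ESRRB, and lost between 0.65 and 1.79 on the log2 scale, with a median log2 fold change of -1.25. All 17 held the same DNA element near the centre, ACTACA followed after any 2 bases by TCCCA. In the same genes, 0 of 61 tested promoter windows were called, beside 0.561% lower over all promoter windows. Of their 267 other tested deep intronic windows 0 were called, beside 0.213% lower over all windows. At those shares, counts of 0 among so few windows do not set these genes apart. In bulk libraries, fewer cells with an open window and less opening in each cell cannot be told apart.

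The element was picked out after the sequences of the 17 windows had been seen, so its presence in all 17 is a description of them. Stretches around it are printed from hg38, read 5′ to 3′ along the strand on which the element reads ACTACA first. They show what the windows with the smallest adjusted p-values share. The element and, where there is one, the word CCAAT downstream of it are in capitals, and the coordinates are those of the printed stretch.
GRIN2D chr19:48419401-48419489 (+): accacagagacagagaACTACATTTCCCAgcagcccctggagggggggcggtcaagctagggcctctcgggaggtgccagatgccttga
RHOA chr3:49397596-49397684 (+): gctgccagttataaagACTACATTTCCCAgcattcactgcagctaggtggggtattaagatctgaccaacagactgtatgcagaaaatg
SYN3 chr22:32904176-32904264 (+): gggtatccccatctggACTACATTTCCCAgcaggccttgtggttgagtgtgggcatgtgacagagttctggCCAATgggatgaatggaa
RFLNA chr12:124240604-124240692 (+): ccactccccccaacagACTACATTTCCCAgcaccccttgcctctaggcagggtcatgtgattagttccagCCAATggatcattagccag
LRMDA chr10:75956812-75956900 (-): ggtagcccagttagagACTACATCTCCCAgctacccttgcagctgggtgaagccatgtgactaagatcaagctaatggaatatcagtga
MAP3K2 chr2:127365416-127365504 (+): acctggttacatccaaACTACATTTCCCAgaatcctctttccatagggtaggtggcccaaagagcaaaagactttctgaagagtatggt
RFLNA chr12:124109850-124109938 (+): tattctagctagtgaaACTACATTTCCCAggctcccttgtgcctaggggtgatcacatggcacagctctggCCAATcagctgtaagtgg
ESRRB chr14:76426333-76426421 (-): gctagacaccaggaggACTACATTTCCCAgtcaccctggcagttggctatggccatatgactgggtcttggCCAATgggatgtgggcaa
The first of the RFLNA stretches belongs to the window 48523 bp from the nearest start of that gene and the other to the window 136667 bp from it. A further stretch from MED13L is shown because its window was the most accessible of the 17.
MED13L chr12:116257335-116257423 (+): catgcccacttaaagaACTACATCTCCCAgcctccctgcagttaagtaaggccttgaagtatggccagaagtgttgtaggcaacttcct
For contrast, the next stretches come from the 3 windows that held the element and had a fold change above 0. They were picked by that sign, and none of the 3 was called higher.
GABBR2 chr9:98410394-98410482 (+): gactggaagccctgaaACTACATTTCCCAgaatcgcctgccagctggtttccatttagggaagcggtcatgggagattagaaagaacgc
WDR17 chr4:176077264-176077352 (+): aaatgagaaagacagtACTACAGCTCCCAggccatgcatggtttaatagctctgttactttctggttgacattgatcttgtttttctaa
PAPPA2 chr1:176696112-176696200 (-): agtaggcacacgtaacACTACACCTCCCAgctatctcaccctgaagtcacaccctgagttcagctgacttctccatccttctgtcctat
The last stretch is from the only deep intronic window that held both the element and the core of the ZNF143 motif. There the core, CCCAGAATGC, begins with the CCCA that ends the element, so they overlap.
CACNA1A chr19:13396782-13396870 (+): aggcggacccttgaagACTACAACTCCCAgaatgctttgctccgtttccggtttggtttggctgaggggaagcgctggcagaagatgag

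In the 17 windows that fell, the 2 free bases were TT in 15 and TC in the other 2. Over all 52 deep intronic windows with the element they were TT in 36, and the windows in GABBR2, WDR17 and PAPPA2 had TT, GC and CC. Bases after the element were also shared. Counting positions from 1 at the first base of ACTACA, G stood at position 14 in 45 of 52, C at position 19 in 42 and T at position 22 in 41, while before the element the most frequent base at any of the 16 printed positions was shared by at most 29 of 52. Among the 17 that fell, C stood at position 19 in 16 and T at position 22 in 15. No repeat annotation was used here.

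A second word recurred at a similar distance from the element in part of the windows. The CCAAT box is the site of NFY, a trimeric activator. CCAAT lay 40 to 60 bp downstream of the element, middle to middle, and in the element's own direction, in 25 of 52 windows (48.1%) and in 10 of the 17 that fell. The reversed word lay in that span in 0 of 52, and at the same distance upstream CCAAT lay in 2 and the reversed word in 1. With longer NFY words, CCAAT followed by C or G and then by A or G on either strand and at most 100 bp from the centre, 22 of 52 windows had a match, and in 21 of them it lay downstream in the same direction, 46 to 54 bp away and exactly 52 bp away in 11. Those words were in 5.87% of deep intronic windows without the element. Intergenic windows with the element had CCAAT in the downstream span in 39 of 91 (42.9%) and promoter windows with the element in 19 of 473 (4.02%). All 25 windows with the downstream CCAAT were tested and had log2 fold changes below 0, from -1.42 to -0.21, with a median of -0.72. The 21 tested without it had a median of -0.65. The distances were chosen after the positions had been seen, and these counts describe sequence only.

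Genome-wide, the element occurred 3779 times in chromosomes 1 to 22, X and Y, and 572 of these lay in sequence that meets the deep intronic rule. Of the 572, 9.09% fell within 100 bp of the centre of a deep intronic window, while such spans made up 1.33% of that sequence. The element was thus in 52 deep intronic windows, or 0.13% of the class, against 0.228% of intergenic windows, 1.17% of promoter windows and 0.389% of all windows. A summit from the pooled replicates 1 to 8, which did not enter the counts, lay in 50 of the 52 windows (96.2%), against 80.3% of all deep intronic windows, and in all 17 of those that fell.

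Of the 40035 windows, 34096 passed the filter on low counts (85.2%) and were tested. Called windows made up 0.0499% of tested deep intronic windows, against 0.213% lower among all 185040 tested windows, 0.129% in intergenic and 0.561% in promoter windows. The difference between these shares was not tested. No deep intronic window was higher, where the share over all windows was 0.00108%. At an unadjusted edgeR p under 0.05, 483 deep intronic windows were higher (1.42%, against 1.3% of all windows) and 476 lower (1.4%, against 1.55%). DESeq2 also called 0 of them higher, with 0.00216% higher over all windows. In 8 deep intronic windows the highest dTAGV-1 library was below the lowest control library (0.0235%, against 0.0713% of all windows), of which 7 were among the 17. The median log2 fold change of the class was -0.0019, with quartiles of -0.15 and 0.14, and 50.4% of its windows were below 0. Over all tested windows the median was 0.0077 and 48.2% were below 0.

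**Figure D1:**
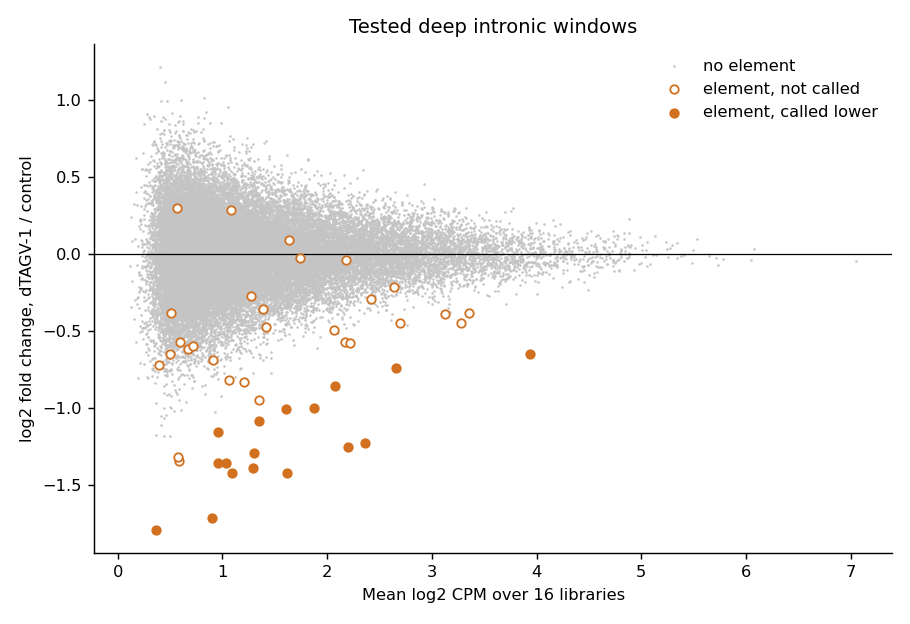
Each point is 1 of 34096 tested deep intronic windows, with its mean level over 16 libraries (log2 CPM) on the horizontal axis and its log2 fold change (dTAGV-1 over control) on the vertical axis. Windows with the element (open and filled circles) lie below 0 in 43 of 46 cases, and the 17 filled circles passed the test. The element was read from those 17.

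The window with the smallest adjusted p lay in intron 9 of 13 of GRIN2D (ENSG00000105464.4), which encodes a subunit of the NMDA receptor, at chr19:48419229-48419629 and 25761 bp from the nearest start. Its control libraries ran from 2.74 through a median of 2.95 to 3.17 log2 CPM, and its dTAGV-1 libraries from 1.27 through 1.80 to 2.26. Every dTAGV-1 library lay below every control library, and the highest of them was replicate 11, 1 of the libraries with low totals. The log2 fold change was -1.22 (SE 0.16, edgeR adjusted p = 1.61e-06), which left 42.8% of the control level. The centre of this window was 70 bp from an exon of the canonical transcript, so the window reached into it. The same held for 1 other of the 17, in RSPO4, and for 614 windows of the class (1.53%). This distance was not taken for windows outside canonical introns, 3 of the 17 among them, nor to exons of other transcripts.

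RHOA encodes a small GTPase that controls the actin cytoskeleton. A window in its first intron, at chr3:49397460-49397860 and 13985 bp from the start, ranged from 1.85 through 2.91 to 3.10 log2 CPM in control and from 1.28 through 1.67 to 1.99 in dTAGV-1. The lowest control library was replicate 12, and 6 of the 8 dTAGV-1 libraries lay below it. The log2 fold change was -1.25 (SE 0.17, edgeR adjusted p = 4.62e-06).

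SYN3, a gene of the synapsin family of synaptic vesicle proteins, held a window in intron 4 of 13, at chr22:32904050-32904450. Control levels ran from 1.85 through 2.06 to 2.52 log2 CPM, and dTAGV-1 levels from -2.05 through 0.72 to 1.39. The groups did not overlap, and the lowest value was that of dTAGV-1 replicate 12, which had a count of 0 there. The log2 fold change was -1.39 (SE 0.23, edgeR adjusted p = 0.00023).

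RFLNA, which encodes refilin A, a regulator of actin filaments that binds filamin, had 2 windows that fell. Both lay outside the introns of its canonical transcript. The window at chr12:124240441-124240841 had control levels from 1.38 through 2.33 to 2.94 log2 CPM and dTAGV-1 levels from 0.093 through 0.89 to 2.30, with a log2 fold change of -1.42 (SE 0.24, edgeR adjusted p = 0.000378). There 6 of 8 dTAGV-1 libraries were below all controls, and the highest was replicate 12. The window at chr12:124109712-124110112 ran from 1.11 through 1.83 to 2.09 log2 CPM in control and from -0.22 through 0.57 to 0.94 in dTAGV-1, with no overlap between groups. Its log2 fold change was also -1.42 (SE 0.26, edgeR adjusted p = 0.0011).

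LRMDA, a gene for a protein of melanocyte differentiation, held the called window farthest from a start, 174080 bp away in intron 2 of 6, at chr10:75956641-75957041. Its control libraries ran from 1.37 through 1.67 to 2.12 log2 CPM and its dTAGV-1 libraries from -1.56 through -0.0012 to 1.29. No dTAGV-1 library reached the lowest control library, and 30.6% of the level was left by the fit (log2 fold change -1.71, SE 0.29, edgeR adjusted p = 0.00046). The window was a weak one, with 11 to 32 counts per control library and 1 to 13 per dTAGV-1 library.

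MAP3K2, a kinase of MAP kinase cascades, had a window in its first intron at chr2:127365246-127365646, with control levels from 1.42 through 1.92 to 2.32 log2 CPM and dTAGV-1 levels from -0.37 through 0.79 to 1.24. The groups were apart, and the lowest library was dTAGV-1 replicate 16. The log2 fold change was -1.29 (SE 0.22, edgeR adjusted p = 0.000541). ESRRB encodes an orphan nuclear receptor of pluripotent cells, and the window in its first intron at chr14:76426131-76426531 ran from 2.03 through 2.28 to 2.71 log2 CPM in control and from 1.07 through 1.42 to 1.93 in dTAGV-1. Here too no library crossed over to the other group, with a log2 fold change of -1.0 (SE 0.18, edgeR adjusted p = 0.00127).

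The other 9 windows lay in CHN2, SYT2, PRIMPOL, MED13L, PIK3R6, DTNA, TMEM266, ABTB3 and RSPO4. Their edgeR adjusted p-values ran from 0.00175 in CHN2 to 0.048 in RSPO4. CHN2 encodes a GTPase-activating chimaerin, PRIMPOL a primase that restarts stalled replication, DTNA a dystrobrevin of the dystrophin complex and RSPO4 a secreted agonist of Wnt signalling. SYT2, for a calcium sensor of synaptic vesicles, had the largest change, a log2 fold change of -1.79 (SE 0.36). The median level of its window went from 1.24 in control to -0.44 log2 CPM. This window was a weak one, with 7 to 31 counts per control library and 0 to 14 per dTAGV-1 library. The window in MED13L, a subunit of the Mediator kinase module, had the smallest, -0.65 (SE 0.13, edgeR adjusted p = 0.00792), from a control median of 4.36 log2 CPM to 3.68. It was the most accessible of the 17, with 33 to 235 counts per control library, and only 3 of its 8 dTAGV-1 libraries were below all controls. The lowest control library there was replicate 12. In PIK3R6, for a regulatory subunit of a phosphoinositide kinase, the groups did not overlap, with control libraries from 1.77 to 2.56 log2 CPM and dTAGV-1 libraries from 0.42 to 1.74. In the remaining windows some libraries overlapped between groups. In 10 of the 17 windows the highest dTAGV-1 library was replicate 11 or 12, the dTAGV-1 libraries with the lowest totals, and the part of that in the overlap was not tested.

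**Figure D2:**
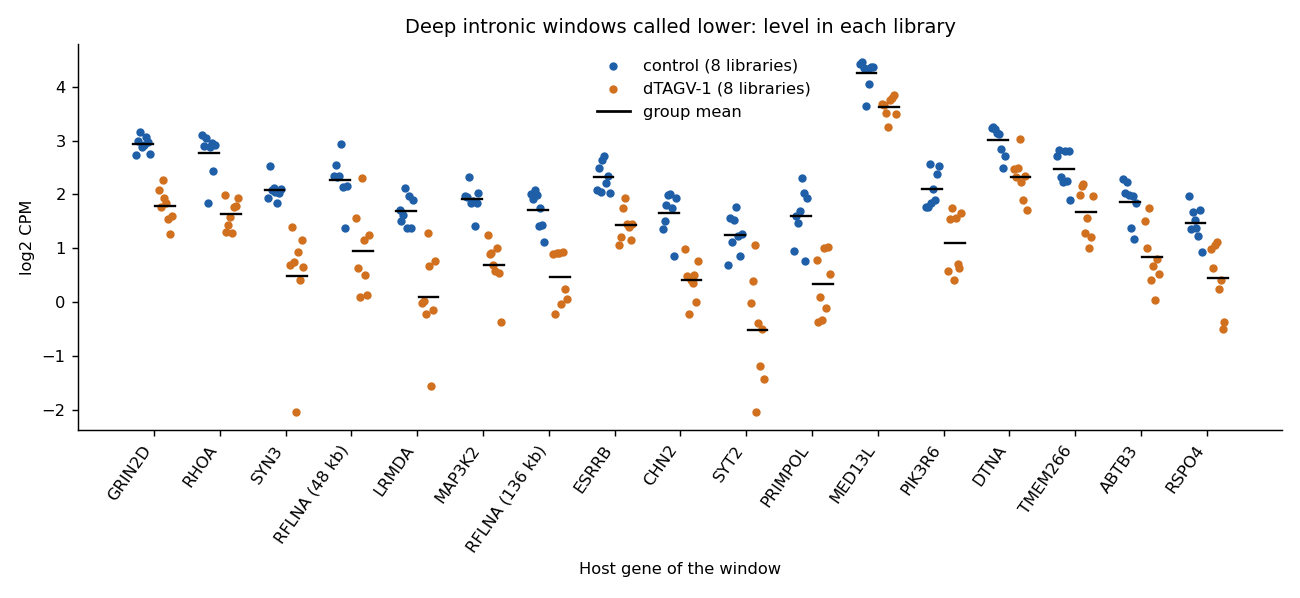
Points are libraries (blue control, orange dTAGV-1, 8 each) and black lines group means, in log2 CPM, for the 17 deep intronic windows called lower, in order of adjusted p. The RFLNA windows are marked by their distance in kb from the nearest RFLNA start, the groups do not overlap in GRIN2D, SYN3, LRMDA, MAP3K2, the RFLNA window at 136667 bp, ESRRB and PIK3R6, and in SYN3 dTAGV-1 replicate 12 lies at -2.05.

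Leaving out 1 library at a time, between 12 and 18 deep intronic windows were lower, and 11 of the 17 were called in each of those fits and in every other model tried. The 6 that lost the call in some fit were ABTB3, DTNA, PIK3R6, PRIMPOL, RSPO4 and TMEM266. Their highest adjusted p without 1 library (edgeR) was 0.11 in ABTB3, 0.0889 in DTNA, 0.0689 in PIK3R6, 0.0716 in PRIMPOL, 0.28 in RSPO4 and 0.0937 in TMEM266. Without replicates 11 and 12 of both groups, 23 windows were lower, the 17 among them, and 3 were higher, in COL13A1, CTNNA2 and KIT. Of the 23, 19 held the element.

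By place in the gene, 7 of the 17 lay in the first intron of the canonical transcript, 2 in the second, 5 in the third or a later one and 3 outside its introns. The class as a whole had 25.1% of its windows in first introns, 15.7% in second, 47.3% in later and 12% outside canonical introns, with median levels of 1.07 log2 CPM in each kind of intron and 1.09 outside them. The distance to the nearest start was 12246 to 174080 bp with a median of 23919 bp, close to the median of 23140 bp over the class. Of the called windows, 16 lay within 50000 bp of a start. GC content was 40.6% to 58.1% (median 47.9%), and none of the 17 was rich in CpG by the definition given below.

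Promoter windows of the host genes, and their other deep intronic windows, had no call. For 14 of the 16 host genes there were tested promoter windows, 61 in all, and of these 0 were lower and 0 higher, beside 0.561% lower over all promoter windows. The most accessible promoter window of each gene had a log2 fold change between -0.14 in GRIN2D and 0.15 in CHN2, with a median of 0.043. At RHOA it stood at 5.55 log2 CPM and its log2 fold change was 0.0091 (SE 0.14), while the first intron window lost 1.25. The other deep intronic windows of the hosts, 267 tested, had 0 calls (0.213% lower over all windows), a median log2 fold change of -0.036 and no element. The nearest tested neighbour of each called window was 440 to 14249 bp away, had no call and no element, and changed by between -0.26 and 0.39 with a median of 0.08. The closest neighbour, 440 bp away in CHN2, had a log2 fold change of 0.35 (SE 0.27), against -1.35 (SE 0.25) in the called window. At those shares, counts of 0 among so few windows do not set the host genes apart, and no window without a call is shown to be unchanged.

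Of the 52 windows with the element, 46 were tested. Their fold changes come from the contrast by which the element was found. A log2 fold change below 0 was seen in 43 of 46 (93.5%, against 50.3% of deep intronic windows without it), and the median was -0.67 with a range from -1.79 to 0.30. An unadjusted edgeR p under 0.05 was reached by 30, all lower, where the share over all tested windows was 1.55%. The 17 called windows, from which the element was read, are among the 43 and the 30 by their selection. The 29 tested windows that were not called had a median log2 fold change of -0.47, and 26 of them were below 0. Averaged over the element windows, control libraries stood at 1.92 ± 0.072 and dTAGV-1 libraries at 1.21 ± 0.13 log2 CPM (SD, n = 8). For those not called the means were 1.75 ± 0.079 and 1.3 ± 0.15. In both, the highest dTAGV-1 library lay below the lowest control library, at 1.34 against 1.81 and at 1.55 against 1.62. The first of these means includes the 17 called windows, so its separation is in part set by their selection. Without replicates 11 and 12 the 2 means over all element windows were 1.92 ± 0.082 and 1.17 ± 0.13 (n = 6). Over those not called they were 1.77 ± 0.086 and 1.25 ± 0.12.

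**Figure D3:**
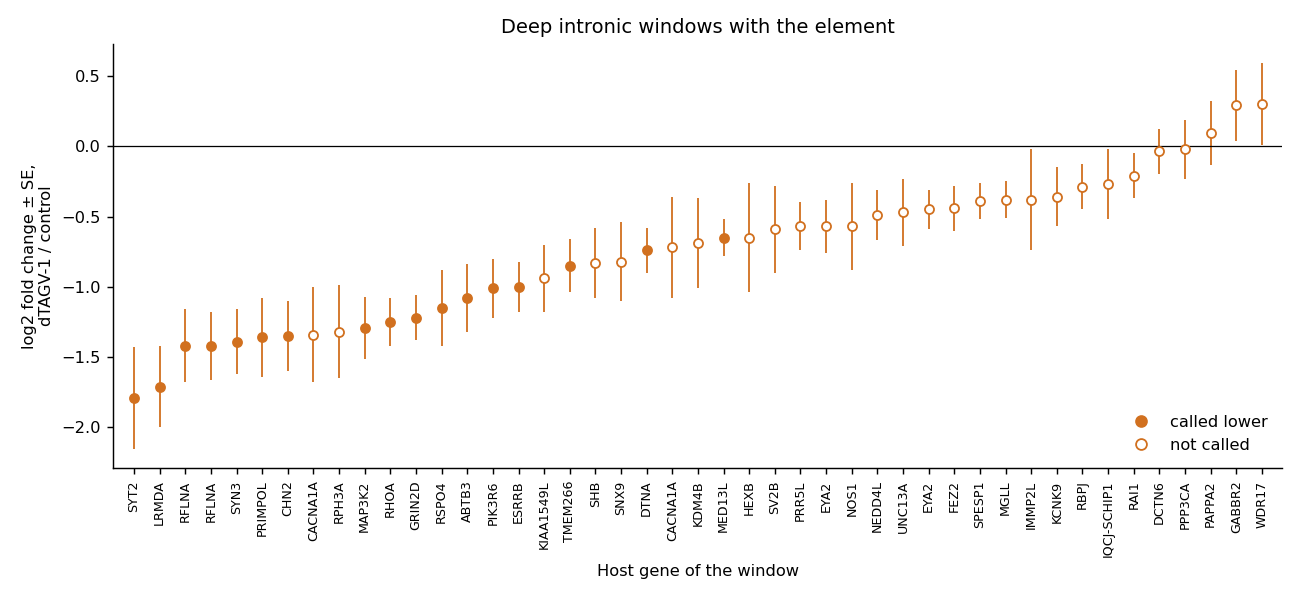
Points are 45 of the 46 tested deep intronic windows with the element, in order of log2 fold change (dTAGV-1 over control), with bars of 1 SE and the host gene below each. Filled points were called lower, and the fold change is below 0 in all but PAPPA2, GABBR2 and WDR17.

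Outside the class, 232 of 378 windows called lower held the element (61.4%), and 688 of 738 tested windows with it were below 0 (93.2%), with a median log2 fold change of -0.50. By class, 35 of 43 lower intergenic windows and 102 of 214 lower promoter windows held it. Element windows of promoters had a smaller median change, -0.33, at a median level of 4.35 log2 CPM, against -0.67 at 1.35 in deep introns and -0.99 at 1.43 between genes. These medians were not compared by a test.

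The 3 tested element windows above 0 were in GABBR2 (log2 fold change 0.29, SE 0.25), WDR17 (0.30, SE 0.29) and PAPPA2 (0.094, SE 0.23) and none of them was called. None had CCAAT in the downstream span, but 7 of the 17 windows that fell also lacked it there. The window in CACNA1A, a subunit gene of a neuronal calcium channel, held element and core together at chr19:13396582-13396982. Its control libraries ran from -0.31 through 1.29 to 2.12 log2 CPM and its dTAGV-1 libraries from -1.22 through 0.076 to 0.69. The groups overlapped widely, and the log2 fold change of -1.34 (SE 0.34) did not pass (edgeR adjusted p = 0.097), although DESeq2 called it with an adjusted p of 0.0473.

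The core of the ZNF143 motif as known from promoters, looked for without the ACTACA part, on either strand and at most 100 bp from the centre, was present in 203 deep intronic windows (0.507%), against 0.518% of intergenic, 0.854% of promoter and 0.58% of all windows. Of the 178 tested, 0 were called, beside 0.213% lower over all windows. Their median log2 fold change was -0.063 and 58.4% were below 0. Over the 177 that did not hold the element, 58.2% were below 0, and 54.9% without control replicate 12. None of the 17 windows that fell had the core within 100 or 200 bp of the centre, and none had a CTCF match. The whole core was also rare in element windows of other classes, at most 100 bp from the centre. It lay in 63 of 473 at promoters, 2 of 91 between genes and 86 of 827 in all classes. Beside such shares, a count of 0 among 17 does not set these windows apart. The core reads CCCA, any base, A or C, and then ATGC. Its CCCA also ends the element, so the 17 windows held that part of it. The core search allows no mismatch, so absence of a match says only that the whole core was not in the window.

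Deep intronic windows were weakly accessible. Their median level was 1.07 log2 CPM (quartiles 0.71 and 1.71), next to 1.09 in intergenic and 2.99 in promoter windows. The mean over deep intronic windows minus that over intergenic windows was -0.036 ± 0.040 over control libraries and -0.041 ± 0.034 over dTAGV-1 libraries, in log2 CPM (SD, n = 8 each), so the distal classes differed by about the spread between libraries. The median standard error of a fold change was 0.26 in deep introns and 0.16 at promoters. Level varied little with distance from a start, from a median of 1.10 log2 CPM at 10000 to 20000 bp to 0.92 beyond 200000 bp. On either side of the distance limit, windows in introns at 9000 to 10000 bp had a median of 1.13 log2 CPM and those at 10000 to 11000 bp 1.15.

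**Figure D4:**
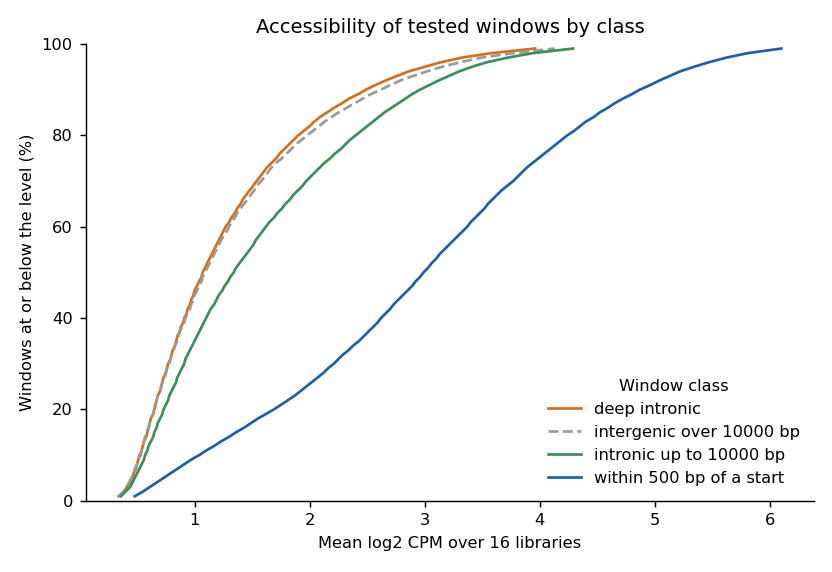
Lines give the percentage of tested windows (vertical axis) at or below each mean level over 16 libraries (log2 CPM, horizontal axis), for 4 position classes. Deep intronic and intergenic windows nearly coincide, with medians of 1.07 and 1.09, and promoter windows lie to the right with a median of 2.99.

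The most accessible deep intronic window lay in intron 3 of 4 of PCDH9, a protocadherin gene, at chr13:66835128-66835528. It ran from 6.07 through 7.22 to 7.31 log2 CPM in control and from 6.46 through 7.10 to 7.35 in dTAGV-1, with the groups overlapping and control replicate 12 the lowest of all. The next were in CD226, for a receptor of lymphocytes (control median 6.19, dTAGV-1 6.14), DACH1, for a transcriptional cofactor of development (6.17 and 6.08), CNTNAP2, for a neurexin-like adhesion protein (5.87 and 5.83) and SAXO1, for a protein that stabilises microtubules (5.83 and 5.80). None of these 5 was called, and none held the element, the ZNF143 core or a CTCF match. All 5 had a summit of replicates 1 to 8.

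Windows were spread unevenly over host genes. Of the 5470 hosts, 1331 had 1 window, 3017 had 2 to 9 and 1122 had 10 or more, with a median of 3. The 77 genes with 50 or more held 15.9% of all windows. The hosts with most tested windows were PCDH9 with 267, GPC6 with 225 and GPC5 with 224, all on chromosome 13, and ROBO1 with 134 and ROBO2 with 133 on chromosome 3. GPC5 and GPC6 encode glypicans, cell-surface proteoglycans, and ROBO1 and ROBO2 encode receptors for the guidance cue Slit. Per Mb of gene, PCDH9 had 293 windows, GPC6 205, GPC5 169, ROBO1 131 and ROBO2 85.5. Summed over its windows, PCDH9 had 1140 to 1630 CPM in control (median 1280) and 1110 to 1570 in dTAGV-1 (median 1250), so the groups overlapped almost fully. No window in these 5 genes was called.

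By chromosome, deep intronic sequence held 66.5 windows per Mb over all, against 39.7 for intergenic sequence. Chromosome 13 was highest with 111, followed by chromosome 6 with 98.4, 22 with 91.1, 1 with 87.1 and 3 with 82.2. Chromosome 2 had 39.3 and X 36.6. Intergenic windows were also densest on chromosome 13, at 93.4 per Mb, while on chromosome 22 they stood at 16.4. Unsequenced gaps of the assembly were not taken out of either length. Their part in the difference between the classes and between chromosomes was not examined. HEK293T does not have a normal number of copies of each chromosome, and DNA copy number was not measured here, so density of windows and copies of DNA cannot be told apart.

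**Figure D5:**
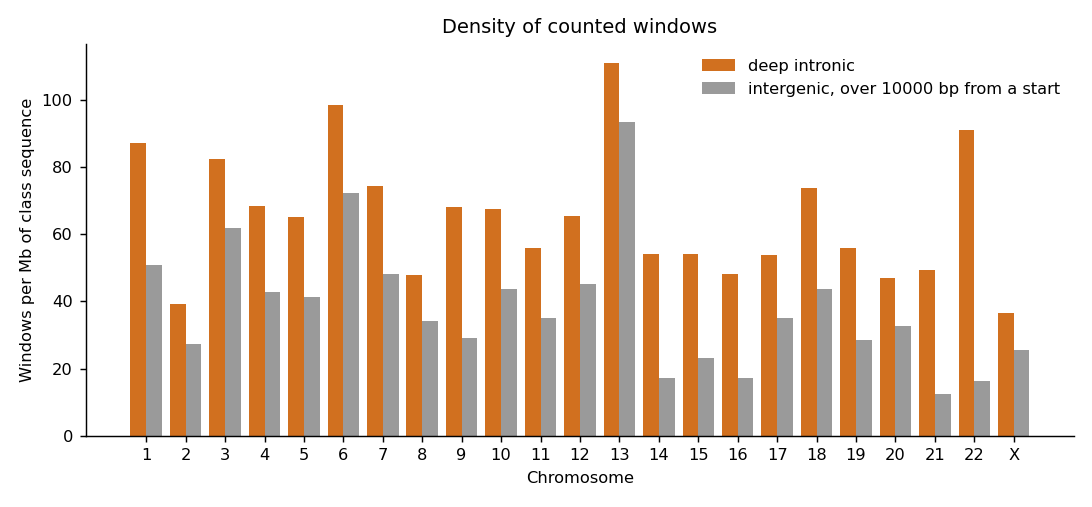
Bars give windows per Mb of deep intronic sequence (orange) and of intergenic sequence over 10000 bp from a start (grey) for chromosomes 1 to 22 and X. Chromosome 13 is highest in both, at 111 and 93.4 per Mb, and chromosome X is at 36.6 and 25.4. Unsequenced gaps of the assembly were left in both lengths.

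Common fragile sites tend to break under replication stress. Of 20 listed long genes with such sites or with other very long introns, 20 had deep intronic windows, 1096 in all. Of 932 tested, 0 were called, beside 0.213% lower over all windows, and their median log2 fold change was -0.01. AUTS2, a gene of neural development, had 117 windows and FHIT, a tumour suppressor gene, 61, while RBFOX1, a splicing factor gene, had 11 (4.45 per Mb) and DLG2, a synaptic scaffold gene, 16 (7.36 per Mb). The list held 3 windows with the element. That in IMMP2L, for a mitochondrial inner membrane peptidase, had a log2 fold change of -0.38 (SE 0.36) and was not called.

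Of 10 genes known for enhancers in their introns, 7 had deep intronic windows, 115 in all with 104 tested, 0 called and a median log2 fold change of -0.021. TCF7L2, a Wnt effector gene, had 26 (120 per Mb), GLI3, of Hedgehog signalling, 26, and FTO 24, LMBR1, whose intron holds the limb enhancer of SHH, had 18 and BCL11A had 2. None was found in HERC2, MCM6 or FGFR2. Of 20 long transcription factor genes, 19 had windows, 458 in all with 411 tested, 0 called and a median log2 fold change of 0.014. NFIA had 88 (147 per Mb), ZNF521 34 (117 per Mb), TEAD1 30 (111 per Mb) and LEF1 14 (115 per Mb), while TCF4 had 2 and ZEB2 none. These counts of 0 stand beside the same 0.213% over all windows, and with this few windows none of the 3 lists is set apart.

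Deep intronic windows were poorer in GC than promoter windows, with a median of 44.9% against 62.6%, and in CpG, with a median observed over expected ratio of 0.199 against 0.723. The words TGACTCA or TGAGTCA, bound by AP1 factors, were in 6.46% of deep intronic windows (6.52% of intergenic, 5.63% of all and 3.0% of promoter windows). ACATTCC, the TEAD word, was in 3.31% (3.33%, 2.88% and 1.61%), and AGATAAG, the GATA word, in 5.43% (5.04%, 4.19% and 1.48%). Words common at promoters were rarer. CCGGAAGT, for ETS factors, was in 0.157% (0.198% of intergenic, 0.702% of all and 2.88% of promoter windows), CGCATGCGC, for NRF1, in 0.025% (0.0475%, 0.309% and 1.37%) and GGGGCGGGG, for SP and KLF factors, in 0.594% (0.711%, 3.56% and 14%). Each word was looked for on either strand, at most 100 bp from the centre, and a match is not a bound site.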

How the data were processed

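The deposited table gave whole-number counts per window for 16 libraries, without normalization, per the file headers, with the -log10 q that the authors' peak caller gave each window. The deposited summit list gave positions and a -log10 score for replicates 1 to 8 together, per the labels, and both scores were used only as descriptions. The tools cutadapt 1.8.1, Bowtie2 2.4.4 and SAMtools 1.9 and the build hg38 are named, with no roles, per the submitters' processing notes. The peak caller, the counting tool and any shift for Tn5 are not given in the sources used here.

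The test was edgeR 4.0.16 (R 4.3.3) on the counts of all 185040 windows that passed filterByExpr, by its quasi-likelihood test with TMM scaling and Benjamini-Hochberg adjustment. DESeq2 1.42.0 was an alternative. Log2 CPM used a prior count of 2. The test was checked on simulated counts. Positions came from GENCODE release 44 and sequences from hg38. Of the windows, 31.7% overlapped another and shared counts with it. The windows named were all those called lower, the first 8 in full, and the 5 most accessible. The class, the gene lists and the words searched were chosen with earlier results of these data known, and the element, the CCAAT span and the windows in the contrast set after the sequences or values were seen. One host gene is not reported here by name, and its window is left out of the plot of element windows. Replicate numbers were not used to pair libraries. Alternatives were other scalings, models, filters, libraries and distances.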

Additional observations from a re-analysis of the deposited data

Results flagged for a closer look

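Of 50 groups of 8 libraries examined (control or dTAGV-1, for the named windows and 2 measures of the whole class), 8 had 1 library far from the others. Chance alone gives about 1 in 20 groups.

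In 5 of the 8 the library was control replicate 12, the one with the fewest counts. It took 13.5% of its counts from deep intronic windows, against 9.72% to 10.3% in the other controls. It was lowest at the most accessible windows, with 6.07 log2 CPM in PCDH9 (others 7.06 to 7.31), 5.03 in DACH1 (6.03 to 6.38), 5.05 in CNTNAP2 (5.74 to 6.07) and 4.95 in SAXO1 (5.76 to 6.14).

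The window in SYN3 had 2, control replicate 10 at 2.52 log2 CPM (others 1.85 to 2.12) and dTAGV-1 replicate 12 at -2.05 (0.41 to 1.39). In MAP3K2, dTAGV-1 replicate 16 lay at -0.37 log2 CPM (0.55 to 1.24).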

How the results depend on the processing

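The 17 deep intronic windows called lower numbered 17 with RLE scaling and with no filter on low counts, 20 with DESeq2, 12 to 18 with 1 library left out and 23 without replicates 11 and 12 of both groups. All 17 were among the 20 and the 23. With the limit at 5000 bp from a start 28 were lower, and at 50000 bp 1 was, of 6251 tested. Windows called higher numbered 0 in all of these except 3 without replicates 11 and 12 and 0 to 1 with 1 library left out, the 1 being without control replicate 12. Over all windows, 397 calls became 632 without control replicate 12 and 781 without replicates 11 and 12. The median log2 fold change of the class was -0.015 to 0.013 with 1 library left out. Of 357 values of the named windows under alternatives, 40 lost the call and 0 changed sign.

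Same-numbered libraries had correlations of 0.0276 to 0.336 in their deviations from the group means, over 0.1 in 5 of 8 numbers. Of the 8, 5 correlated best with their own number, a hint of pairing from the data that the labels do not state. Since not every number was over 0.1, the block was kept as an alternative. With the replicate number as a block, 22 deep intronic windows were lower, the 17 among them, and 0 higher, and calls over all windows rose to 753.

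Beyond 50000 bp from a start the class held 1.88% of counts. The mean of the class minus that of intergenic windows, -0.038 log2 CPM over the 16 libraries, turned to 0.035 beyond 50000 bp and, for the whole class, to 0.0052 when untested windows were kept in. The share of windows with the ZNF143 core was 0.247% within 50 bp and 1.3% within 200 bp of the centre. With the element searched within 50 bp, 13 called windows held it, and within 200 bp 17 did. The causes were not tested. A deep intronic window held a median of 7 to 24 counts per library, and the median standard error of a fold change was 0.26, as in intergenic windows.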

Other observations

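A small part of the class looked like promoters in sequence. With GC above 55% and a ratio of observed to expected CpG above 0.6, 288 deep intronic windows (0.719%) were rich in CpG. The share was 1.87% in intergenic and 57.7% in promoter windows. The CpG-rich deep intronic windows had a median level of 2.53 log2 CPM, against 1.07 in the other deep intronic windows. However, a summit of replicates 1 to 8 lay in 53.8% of the CpG-rich windows, against 80.5% of the others. Of 202 tested, 0 were called (0.213% lower over all windows), and 37.6% had a log2 fold change below 0. That share was 48.3% without control replicate 12 and 42.2% once replicates 11 and 12 were left out of both groups.

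A CTCF match lay in 2.53% of deep intronic windows, against 3.37% of intergenic, 3.03% of all and 1.52% of promoter windows. Windows with it had a median level of 1.85 log2 CPM, against 1.06 without it. Of 970 tested, 0 were called (0.213% lower and 0.00108% higher over all windows), the median log2 fold change was 0.043 and 40.7% were below 0, with 44.5% below 0 without control replicate 12. Without replicates 11 and 12 of both groups, the 3 deep intronic windows called higher by edgeR lay in COL13A1, a collagen gene (log2 fold change 0.79, SE 0.19, adjusted p = 0.0197), CTNNA2, a catenin gene of neurons (1.28, SE 0.33, adjusted p = 0.0393) and KIT, for the stem cell factor receptor (1.29, SE 0.30, adjusted p = 0.0139). DESeq2 called RPH3A, CACNA1A and PDSS2 lower beside the 17, with adjusted p-values of 0.0195, 0.0473 and 0.0234, and the window in PDSS2 held no element.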
